A study of Gallus gallus with 45 samples.

Results

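Jejunal tissue of broiler line Y was compared with that of broiler line X at 16 days of age. Line Y was represented by pools 17 to 24 and line X by pools 17 to 24, so that 16 of the 45 arrays of the series entered the comparison, 8 for each line. The pools were chosen by line and age as labelled, and each array held the RNA of whole jejunum from 10 birds of 1 line and 1 age. Birds of both lines lived on the floor with free access to feed and water, and no further treatment distinguished them. The remaining 29 arrays, of both lines at days 0 and 4, gave the difference between the lines at those ages. Lines X and Y are genetically divergent broiler populations known only by these letters, and a pool shows the average of its birds and not the spread between birds. Pools of 1 line at 1 age lay together on 1 slide, so that slide and line cannot be told apart at day 16. The lines were also kept in pens of their own, so that pen and line cannot be told apart either. Pools are treated below as replicates, and p-values measure the spread between pools.

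The jejunum absorbs most of the sugars, amino acids and fat of a meal. Its wall holds an epithelium of absorptive enterocytes, goblet cells and hormone-releasing cells, a lamina propria rich in lymphocytes and macrophages, connective tissue, layers of smooth muscle and the neurons and glia of the enteric nervous system. In the weeks after hatch the gut of the chick is colonised by bacteria, its villi grow and its lymphoid tissue fills with cells. Because whole tissue was used, fewer cells of a type and less RNA per cell cannot be told apart for any gene below.

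Intensities were measured by one-colour arrays and are given as normalised log2 values, on which a difference of 1 is a doubling. Of 25527 probes above the background limit in at least 1 of the 6 groups of the series, 4636 were higher in line Y and 3953 lower (limma, Benjamini-Hochberg adjusted p below 0.05 and fold change above 1.3), 18.2 % and 15.5 % of those tested and 8589 (33.6 %) in all. The limit was passed in a day 16 group by 21460 probes, and the others were tested only because they passed it at a younger age. With the limit applied to the day 16 groups alone 3545 probes were higher and 3647 lower. Over all 25527 probes, the pools of the lines did not overlap, with line Y above, in 2105 (8.25 %) and, with line Y below, in 1143 (4.48 %). The first principal component of the day 16 arrays held 43.4 % of the variance and separated all line Y pools from all line X pools. The second held 16.3 % and set line Y pools 23 and 24 apart from the other 6 line Y pools. Where the call of a gene named below ended without these pools, its value without them is given. All 13 enterocyte markers on the array, among them villin (VIL1), FABP2 and CDX2, were well above background in all 16 pools, while the single goblet cell marker on the array, ST6GALNAC1, was well above background in all of them but did not pass the stricter limit set for the test. The median raw intensity of an array was between 110 and 183 in line Y and between 78 and 170 in line X. The brightest dark corner spot of an array, from which the limit was set, had log2 values of 4.97 to 7.05 in line Y and 4.31 to 6.69 in line X. Values in or below that range are close to the limit of measurement. The folds of ACVR2B, CATH2, FOXA2 and F9 below rest in part on such values.

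A symbol could be given to 7824 of the tested probes, which stood for 3740 genes. A gene was called higher or lower only where every one of its tested probes passed the test in that direction. With this rule 378 genes (10.1 %) were higher in line Y and 320 (8.56 %) lower, and these shares are an approximate background for every group of genes below. Genes with 1 tested probe passed the rule more often than genes with several, so the share of a list also depends on its probes per gene. Of 2372 genes with at least 2 tested probes, 138 (5.82 %) were higher and 130 (5.48 %) lower by all of them. In 30 (1.26 %) and 22 (0.927 %) of these genes the pools of the lines did not overlap in any probe. The largest differences among them are described first. A value of a gene is the mean of its probes in a pool, its adjusted p is the highest of its probes, and levels of different genes are not compared, since probes differ in their response.

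The largest fall was that of BLB1, a beta chain of the class II major histocompatibility complex (MHC), which presents peptides to helper T cells. Its lowest, median and highest values were 8.45, 8.83 and 9.25 in line Y and 11.66, 12.21 and 12.67 in line X. Both probes of BLB1 were lower in line Y, with log2 differences of -4.44 and -2.296, and the mean was 10.3-fold lower (adjusted p = 6.0e-15). The chicken carries another, closely related beta chain gene, and whether the probes tell them apart was not tested. Osteopontin (SPP1), a secreted phosphoprotein of bone, epithelia and macrophages, was 2.48-fold lower, with 7.05, 7.43 and 7.75 in line Y and 8.43, 8.78 and 8.95 in line X (adjusted p = 2.8e-05). Lysozyme (LYZ), which cleaves bacterial cell walls, was 2.22-fold lower, with 11.28, 11.81 and 12.24 in line Y and 12.53, 12.87 and 13.12 in line X (adjusted p = 4.7e-07).

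Several genes of ion transport and metabolism followed. SLC24A2, a sodium/calcium-potassium exchanger, had 6.68, 6.88 and 7.06 in line Y and 7.59, 8.14 and 8.45 in line X (2.29-fold lower). TMEM175, which in mammals forms a potassium channel of lysosomes, had 9.90, 10.19 and 10.46 in line Y and 11.06, 11.33 and 11.57 in line X (2.19-fold lower). In both genes the highest line Y pool lay below the lowest line X pool. SRL, the calcium-binding sarcalumenin, was 2.02-fold lower and STXBP6, which binds the SNARE proteins of vesicle fusion, 1.90-fold. TALDO1, transaldolase of the pentose phosphate pathway, was 1.78-fold lower, the cation channel PKD2 1.72-fold, SMIM19 1.93-fold and the galectin LGALS1B 1.67-fold. All of these passed the test in every probe, with adjusted p-values of 5.0e-06 or less.

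Among genes higher in line Y, FAM234B led. One of its probes had 8.60, 8.73 and 8.96 in line Y and 6.98, 7.52 and 7.73 in line X, a difference of 1.32 on the log2 scale. Its other probe was well above background in all 8 line Y pools and in 0 of 8 line X pools, and the rise came to 6.06-fold at least, with line X set per array at the lowest signal well above background. RAP1GAP3 had 3 probes, which differed by 1.52 to 1.66, and its mean was 8.18, 8.34 and 8.51 in line Y and 6.56, 6.71 and 6.94 in line X (3.04-fold higher, adjusted p = 1.4e-15). The spread between pools of a line was thus small beside the difference between the lines for this gene.

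TSHB, the beta subunit of thyroid-stimulating hormone, known as a product of the pituitary, had 6.34, 6.47 and 6.71 in line Y and 4.55, 4.78 and 5.70 in line X (2.88-fold higher, adjusted p = 4.4e-11). Its probes were well above background in all 8 line Y pools, and in 5 and 2 of 8 line X pools, so that the level in line X is close to the limit of measurement. ACVR2B, a receptor for activins, had 6.41, 7.13 and 7.44 in line Y and 5.12, 5.66 and 6.09 in line X (2.73-fold higher). LY6E, a membrane protein that interferon induces in mammals, had 14.71, 15.42 and 15.66 in line Y and 13.82, 14.14 and 14.46 in line X (2.34-fold higher). Retinol dehydrogenase RDH5 was 2.19-fold higher, the DNA helicase RECQL 1.99-fold and the homeobox gene HESX1 1.91-fold by 3 probes. TTC14 was 2.31-fold and CCDC127 2.04-fold higher. PTPRZ1, a receptor-type tyrosine phosphatase of glia, was higher (adjusted p = 1.4e-04), with each of its probes well above background in all 8 line Y pools and in 1 of 8 line X pools, so that no fold is given.

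**Figure D1:**
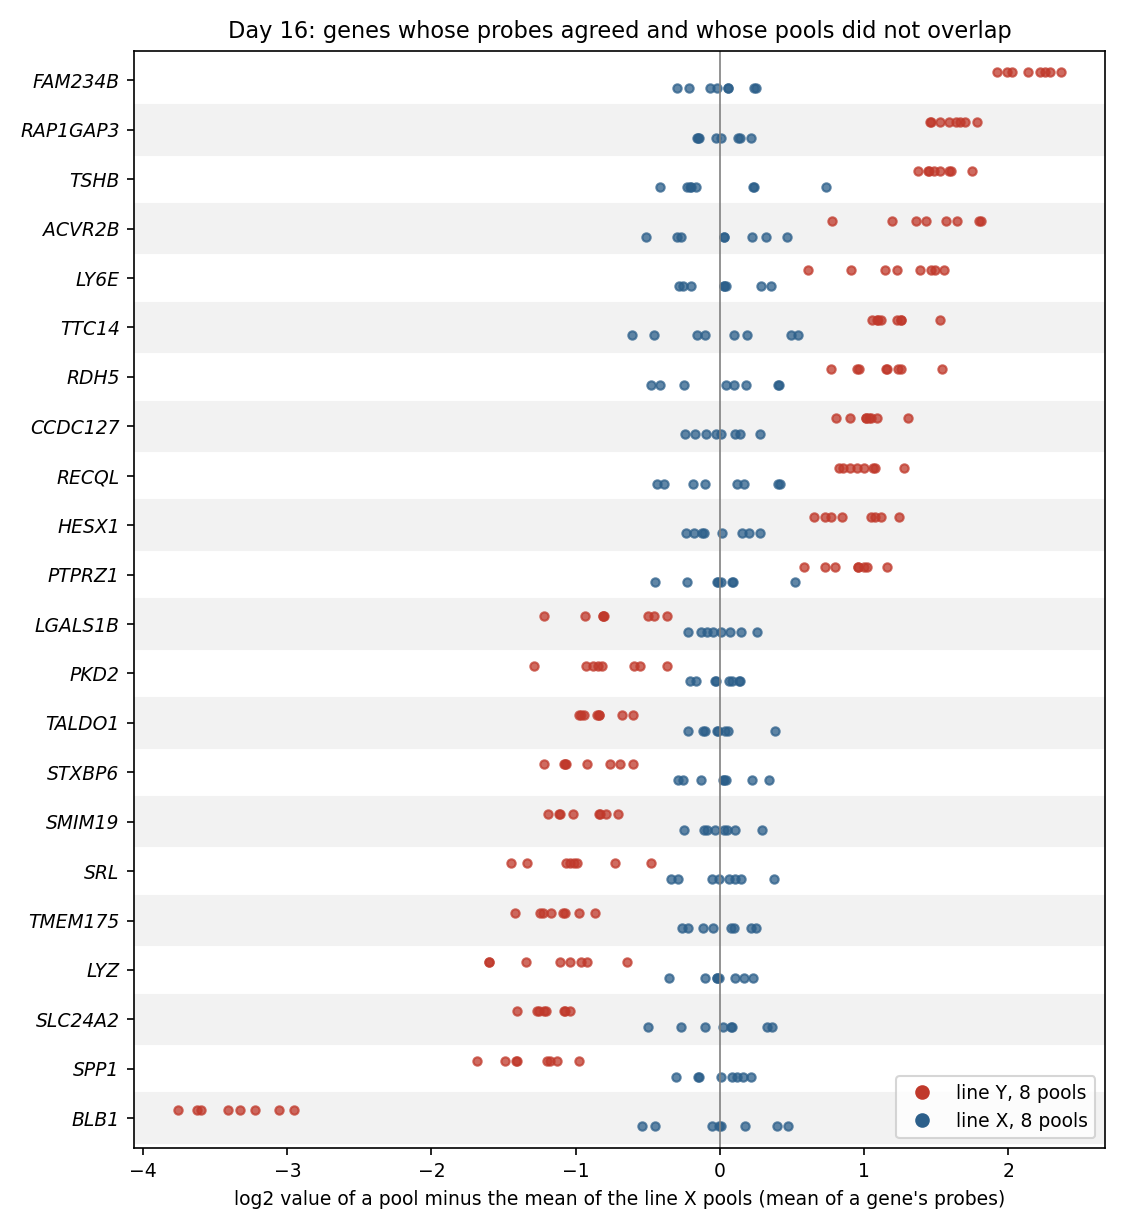
Log2 values of each pool minus the mean of the line X pools at day 16, as the mean of a gene's probes, for 11 of the genes highest and 11 of the lowest in line Y among those whose probes agreed and whose pools did not overlap. Points are pools, with line Y above line X in each row, and BLB1 lies farthest from zero.

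The arrays of days 4 and 0 came from other birds, and 5952 (23.3 %) and 9729 (38.1 %) probes differed between the lines at these ages. The difference between the lines at day 16 was tested against each of them in the same fit. Over all probes, the line difference at day 16 departed from that at day 4 for 8922 (35.0 %) and from that at day 0 for 11371 (44.5 %). Of the 8589 probes called at day 16, 1863 were also called in the same direction at day 4 and 823 in the opposite one, 2446 and 1271 at day 0, and 4036 were called at neither age.

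The log2 difference of BLB1 was -0.83 (day 0), -1.24 (day 4) and -3.37 (day 16), and the change from day 4 to day 16 was -2.13 (adjusted p = 1.0e-05). TSHB had differences of -0.27, -0.08 and 1.53 in order of age, and HESX1 by -0.26, -0.40 and 0.94, with changes between day 4 and day 16 of 1.61 (adjusted p = 8.8e-08) and 1.33 (adjusted p = 1.1e-07). ACVR2B differed by -0.07, 0.61 and 1.45, and the change between day 4 and day 16 was 0.84 (adjusted p = 3.2e-04). LYZ differed by -1.13, -1.07 and -1.15, and its change between day 4 and day 16 was -0.08, which did not pass the test (adjusted p = 0.96). Changes of FAM234B, CCDC127, RECQL, SPP1, SLC24A2, SRL, SMIM19, TALDO1, PKD2 and LGALS1B between day 4 and day 16 did not pass it either.

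**Figure D2:**
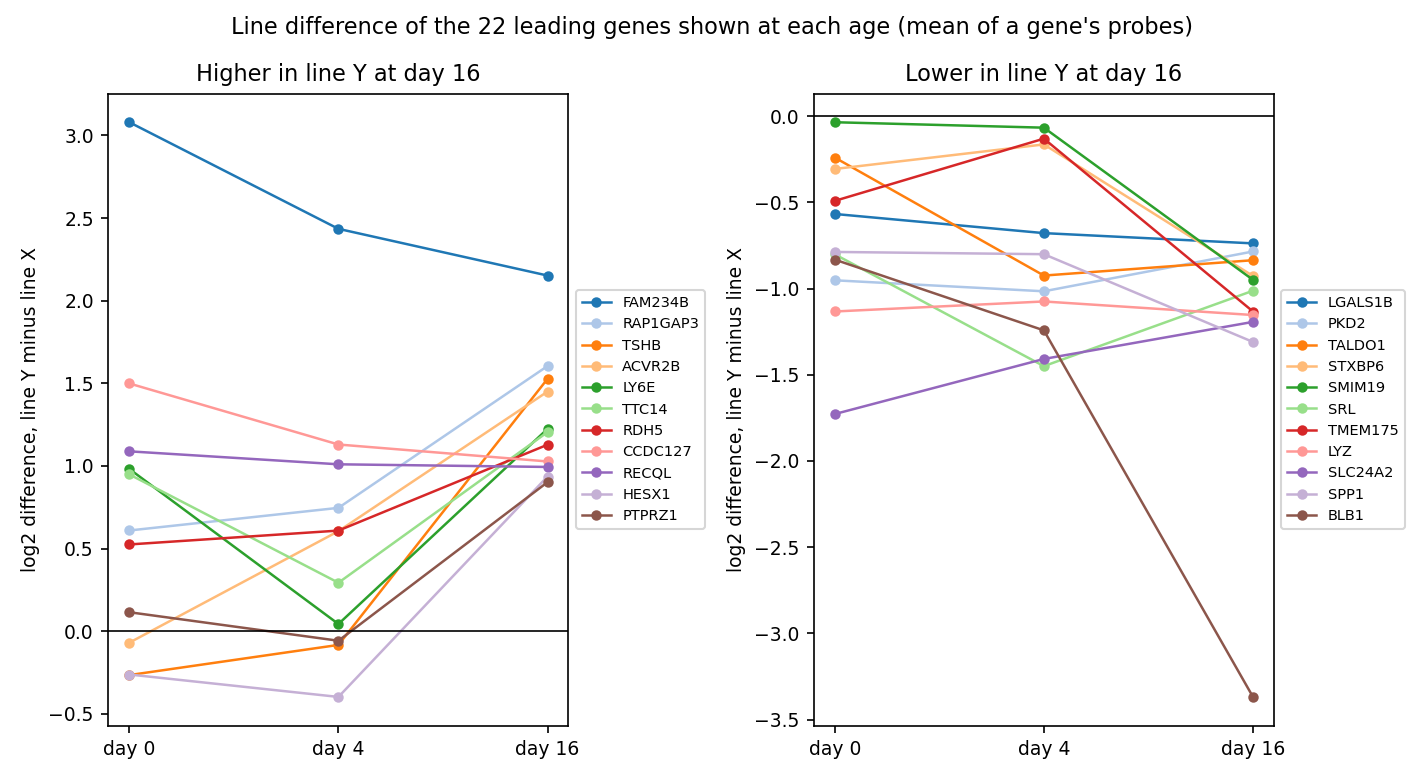
Log2 difference of line Y minus line X at days 0, 4 and 16 for 22 leading genes, as the mean of a gene's probes, with genes higher in line Y at day 16 on the left and lower ones on the right. BLB1 drops to -3.37 at day 16 whereas LYZ stays between -1.15 and -1.07 at all ages.

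Lists of genes with known roles in the gut were then followed. Antimicrobial peptides and lysozymes kill or restrain bacteria in the lumen and in granulocytes. Of 13 tested members 1 was higher and 4 were lower, where 10.1 % and 8.56 % of all tested genes were. The median log2 difference was -0.29 against -0.03 over all tested genes. Besides LYZ, the cathelicidin CATH2 had 3.51, 5.30 and 7.08 in line Y and 5.25, 6.49 and 8.19 in line X (2.51-fold lower, adjusted p = 7.8e-03), the beta-defensin AvBD1 differed by -1.23 (adjusted p = 0.014) and the liver-expressed peptide LEAP2 by -0.65 (adjusted p = 0.012). Pools of both lines had CATH2 values close to the limit of measurement, so its fold is uncertain. The member that rose was RSFR, a ribonuclease of leukocytes, by 0.61. Pools of the lines overlapped for CATH2, AvBD1, LEAP2 and RSFR but not for LYZ.

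Macrophage and granulocyte genes shared LYZ with that list, and 7 of 21 tested were lower and 1 higher, with a median of -0.28. Over all tested genes 8.56 % were lower and 10.1 % higher. LECT2, a chemotactic factor for neutrophils, had 8.25, 8.76 and 9.17 in line Y and 9.09, 9.65 and 10.08 in line X (1.83-fold lower, adjusted p = 1.4e-04). The lysosomal proteases cathepsin B (CTSB, -0.50), cathepsin D (CTSD, -0.49) and cathepsin K (CTSK, -1.05) were lower, as were the triggering receptor TREMB2 (-0.60) and MERTK (-1.06), a receptor with which macrophages take up dying cells. CEBPB, a transcription factor of myeloid cells, was higher by 0.64. The called members other than LYZ and LECT2 rest on 1 probe each, and such genes passed the rule more often. PTPRC, the pan-leukocyte antigen CD45, SPI1 and MARCO were among the 13 members that did not pass.

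Line Y pools 23 and 24 stood apart in these lists. Taken as the mean deviation of the list from its average over all 16 pools, the macrophage and granulocyte genes were at -0.48 and -0.47 in these pools, between -0.11 and 0.10 in the other line Y pools and between -0.06 and 0.25 in line X. For MERTK the lowest line Y value was 6.52 against a median of 9.60 in line Y and 9.91 in line X. The same pools had the highest mean of smooth muscle markers, 0.54 and 0.50, against -0.18 to 0.33 in the other line Y pools and -0.51 to 0.17 in line X. Without both pools 4 macrophage and granulocyte genes were lower (LYZ, LECT2, CTSB and CTSD) and 1 higher, while CTSK (-0.24), TREMB2 (-0.22) and MERTK (-0.34) did not pass. The median of the antimicrobial genes was -0.16 without them. Of these genes LYZ and LEAP2 passed without them, and CATH2 (-0.86, adjusted p = 0.073) and AvBD1 (-0.83, adjusted p = 0.11) did not. Leaving out pool 24 alone ended the calls of CTSK (-0.79) and TREMB2 (-0.37), and leaving out pool 23 alone that of CTSK (-0.62). The part of tissue composition in these differences was not tested.

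MHC and antigen presentation genes held 1 higher and 2 lower members of 15, against 10.1 % and 8.56 % of all tested genes. TAP1, which carries peptides into the endoplasmic reticulum for class I molecules, had 8.56, 9.01 and 9.14 in line Y and 7.38, 7.88 and 8.42 in line X (2.17-fold higher by 3 probes, adjusted p = 6.4e-05). The class II chaperone chain DMB2 was 1.39-fold lower, with 12.69, 12.996 and 13.25 in line Y and 13.12, 13.49 and 13.68 in line X. These and BLB1 were the called members among 15 tested, and the class II invariant chain CD74 (-0.11), beta-2 microglobulin (B2M, -0.16) and the class I chains BF1 (-0.15) and BF2 (0.21) did not pass. The line difference of TAP1 was -0.09 at day 4 and 0.45 at day 0, and it changed by 1.2 between day 4 and day 16 (adjusted p = 0.017).

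Genes of the interferon response were called in both directions, about as often as all tested genes (10.1 % higher and 8.56 % lower). The antiviral GTPase MX1 had 9.81, 10.64 and 10.93 in line Y and 9.11, 9.73 and 10.29 in line X (1.77-fold higher, adjusted p = 4.0e-03), and the transcription factor IRF7 was higher by 0.89. The receptor chains IFNGR1 and IFNAR1 were lower, by 3 probes each. IFNGR1 had 8.49, 8.95 and 9.30 in line Y and 9.36, 9.90 and 10.07 in line X (1.83-fold lower, adjusted p = 8.3e-06), and IFNAR1 was 1.38-fold lower. Those were 2 higher and 2 lower of 17 tested members. IFNAR1 did not pass in every probe without pools 23 and 24 (-0.43), nor without any 1 of line Y pools 17, 21, 22 and 23 or line X pools 17, 18 and 19 (-0.46 to -0.41).

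T cell genes gave 2 higher of 16 tested, near the 10.1 % over all genes, and none lower. The counts were the same without line Y pools 23 and 24. The mean deviation of the list was -0.19 and -0.18 in these pools, 0.05 to 0.20 in the other line Y pools and -0.13 to -0.0032 in line X, and its median was 0.03 with and 0.11 without them. CD8BP, named after a beta chain of the CD8 coreceptor of cytotoxic T cells, had 10.75, 10.96 and 11.07 in line Y and 9.76, 9.90 and 10.22 in line X (1.98-fold higher, adjusted p = 2.0e-07). CD5, an inhibitory receptor of T cells, had 10.10, 10.57 and 10.83 in line Y and 9.64, 9.83 and 10.27 in line X. Both rest on 1 probe, and the pools overlapped for CD5 only. CD3E (0.06), CD3D (-0.17), CD28 (-0.08), CTLA4 (-0.31) and CD40LG (-0.29) were among the members that did not pass. The mean was higher in line Y for 11 of the 16 members and lower for 5. By age, from day 0 to day 16, CD8BP differed by -0.39, 0.72 and 0.98 and CD5 by -1.28, 0.05 and 0.67.

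Among B cell and secretory antibody genes, 2 of 12 were higher and 1 lower, against 10.1 % and 8.56 % of all tested genes. BCL6, the repressor that germinal centre B cells need, was 1.59-fold higher by 3 probes, with 10.36, 10.59 and 10.66 in line Y and 9.5, 9.96 and 10.18 in line X (adjusted p = 2.0e-04). Its line difference was -0.33 at day 4, and the change between day 4 and day 16 was 1.00 (adjusted p = 4.0e-05). IRF4, a transcription factor of plasma cells, was higher by 0.39 and CD72, a coreceptor of B cells, was lower (-0.95). IRF4 fell short of the fold change threshold without line Y pool 17 or 19 or line X pool 23 or 24 (0.34 to 0.35). Of 22 chemokine and interleukin genes, CXCL14 (1.73-fold) and the interleukin-10 receptor chain IL10RA (1.59-fold) were higher, and the death ligand TNFSF10 was 1.51-fold lower. IL8L2, an interleukin-8 homologue, differed by -0.35 (adjusted p = 0.50), with 7.45, 7.93 and 8.33 in line Y and 7.24, 8.31 and 9.01 in line X. None of the 2 probes of IL6 passed the background limit. Of 17 genes of Toll-like receptors and their signalling 0 passed in either direction, with a median of -0.09.

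**Figure D3:**
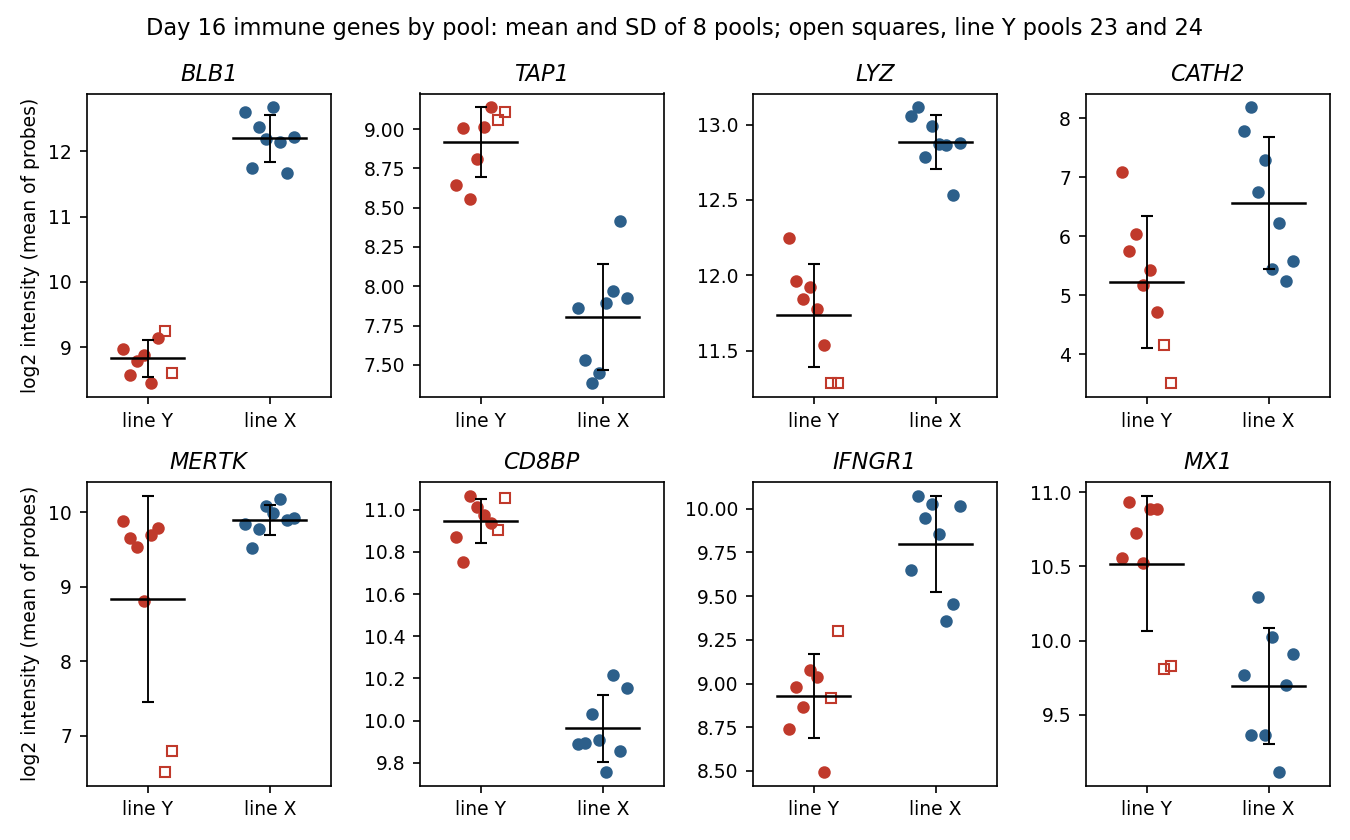
Log2 intensity (mean of probes) of 8 immune genes in each pool at day 16, line Y left of line X, with bars for the mean and SD of 8 pools. Open squares are line Y pools 23 and 24, which hold the lowest line Y values of CATH2, LYZ, MERTK and MX1. BLB1, TAP1, LYZ, CD8BP and IFNGR1 show no overlap of the lines.

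Genes of connective tissue, muscle and nerves rose more often than they fell, as did all tested genes (378 or 10.1 % against 320 or 8.56 %). Of 41 tested collagens and matrix genes 7 were higher and 0 lower, with a median of 0.11. The laminin chain LAMB2 had 11.07, 11.37 and 11.77 in line Y and 10.30, 10.64 and 11.17 in line X (1.67-fold higher, adjusted p = 8.2e-07). COL5A1, a chain of collagen V, was 1.61-fold higher by 4 probes, the collagen-binding proteoglycan FMOD 1.52-fold and P4HA2, a prolyl hydroxylase of procollagen, 1.38-fold. COL18A1 (0.57), COL20A1 (0.61) and the lysyl hydroxylase PLOD1 (0.53) completed the count. The mean was higher for 31 of the 41 and lower for 10, DCN (-0.39), POSTN (-0.37) and TIMP2 (-0.48) among the latter. The pools overlapped for all but P4HA2 and PLOD1, and without line Y pools 23 and 24 the collagen genes COL5A1 (0.60) and COL20A1 (0.42) did not pass, which left 5 of 41. COL5A1 also did not pass without line Y pool 24 (0.64) or line X pool 18 (0.65) alone, nor P4HA2 without line Y pool 22 (0.44) or line X pool 18 (0.42).

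Enteric neuron and glia genes gave 5 higher of 22 and 0 lower, with a median of 0.15. SOX10, the transcription factor of neural crest and glia, had 7.10, 7.49 and 7.64 in line Y and 6.03, 6.35 and 7.29 in line X (2.01-fold higher, adjusted p = 3.3e-07). GFRA2, the receptor of neurturin, was 1.53-fold and CRMP1, a neuronal phosphoprotein, 1.55-fold higher, which was well above background in all 8 line Y pools and in 4 of 8 line X pools. The endothelin receptor EDNRB (0.56) was higher as well. SOX10 differed by -0.09 at day 4 and -0.03 at day 0, and its line difference changed by 1.1 between day 4 and day 16 (adjusted p = 3.1e-04). Pools 23 and 24 had the highest mean of this list in line Y, 0.25 in each, against -0.07 to 0.11 in the other line Y pools and -0.23 to 0.20 in line X. Without them SOX10, GFRA2, CRMP1 and EDNRB passed, which left 4 of 22, STMN2 was lower (-0.49) and the median was 0.10.

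Smooth muscle contractile genes rose in 6 and fell in 3 of 28 tested. The actins ACTA2 (1.48-fold) and ACTG2 (1.5-fold), the myosin light chain MYL9 (0.41), CSRP1 (0.41), the transcription factor SRF (1.40-fold) and PDLIM7 (1.63-fold) were higher. KCNMB1, the beta subunit of the calcium-activated potassium channel of smooth muscle, had 11.49, 11.76 and 12.04 in line Y and 12.12, 12.41 and 12.66 in line X (1.57-fold lower, adjusted p = 1.7e-07), and CSRP2 (-0.54) and the filamin FLNA (-0.45) were lower. Of the 6 smooth muscle markers tested, ACTA2 and ACTG2 passed and MYH11 (0.18), MYLK (0.02), TAGLN (0.44) and SYNM (0.12) did not. ACTG2 did not pass without pools 23 and 24 (0.39, adjusted p = 0.091). Without them 5 contractile genes were higher and 3 lower, and the median of the list was 0.03 in place of 0.12. MYL9 and CSRP1 did not pass without line X pool 18 or 20 (0.35 to 0.36 and 0.35), nor FLNA without line Y pool 21 or line X pool 18, 22 or 24 (-0.40 to -0.35).

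**Figure D4:**
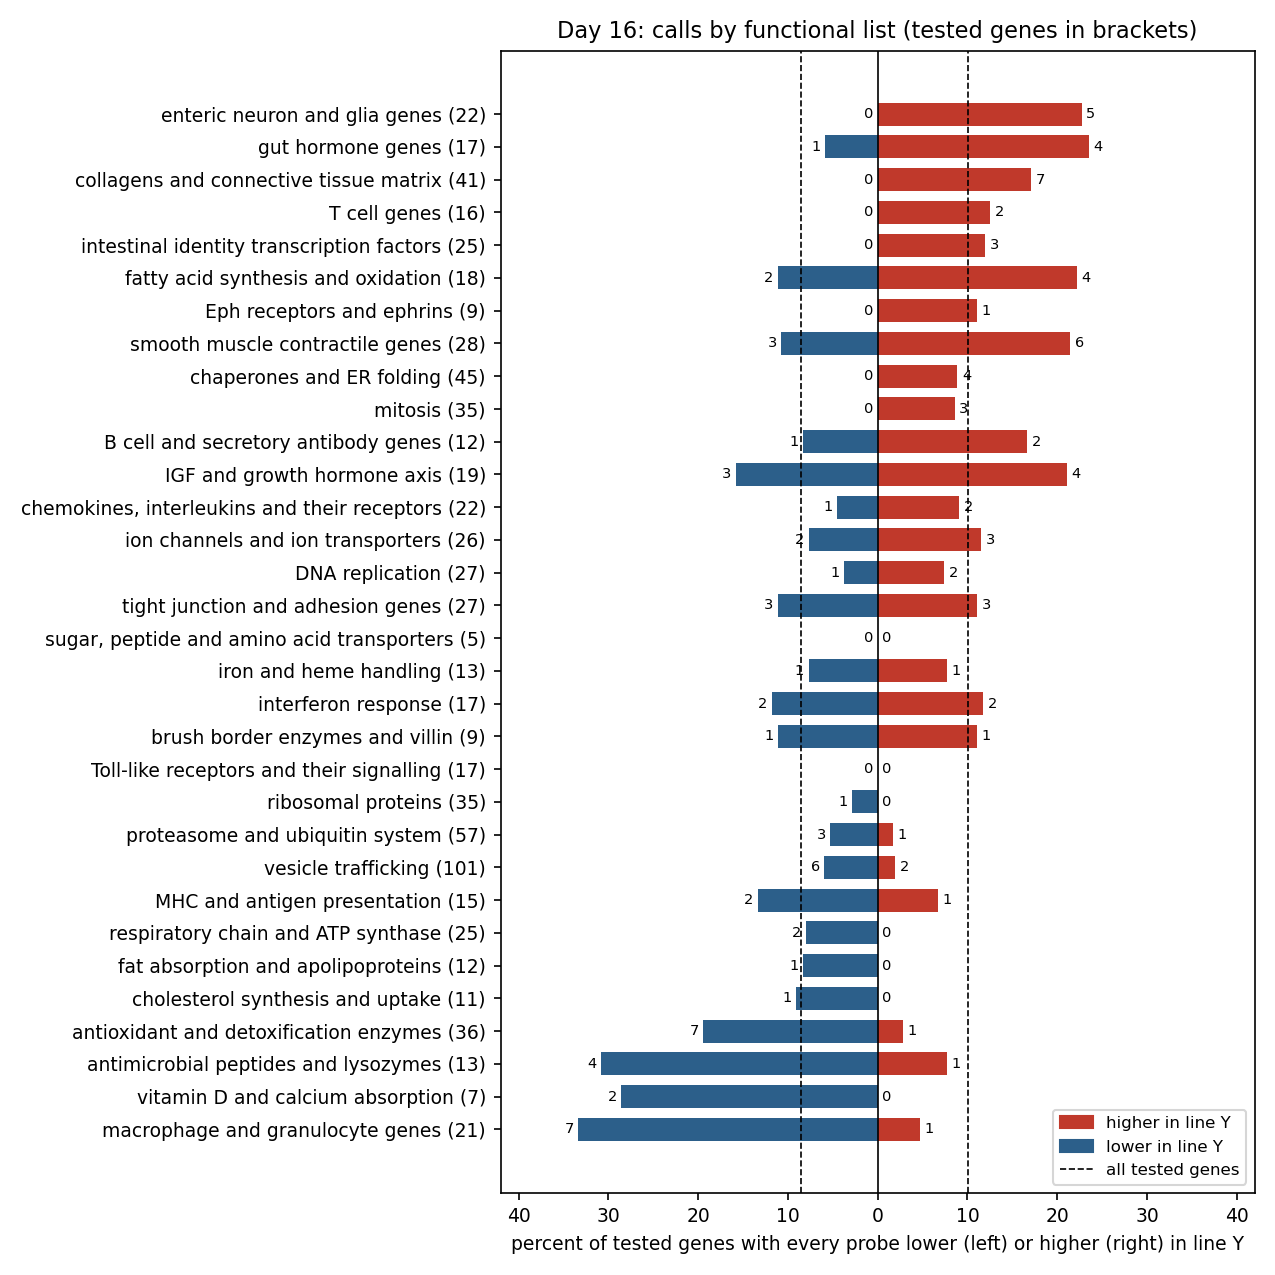
Percentage of the tested genes of each functional list (number in brackets) with every probe lower in line Y, drawn to the left, or higher in line Y, drawn to the right, with the number of genes at the end of each bar. Dashed lines mark the shares over all tested genes, 8.56 % lower and 10.1 % higher, and macrophage and granulocyte genes reach far to the left with 7 of 21, which is 4 of 21 without line Y pools 23 and 24.

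Gut hormone genes gave 4 higher and 1 lower of 17, against 10.1 % and 8.56 % of all tested genes. Ghrelin (GHRL), the appetite-related peptide of endocrine cells, had 7.30, 7.71 and 8.34 in line Y and 4.21, 5.97 and 6.58 in line X, 3.76-fold higher (adjusted p = 1.4e-09), and was well above background in 8 of 8 line Y pools and 6 of 8 line X pools. At days 0 and 4 GHRL differed by 0.30 and 1.39. PAX6, which endocrine cell differentiation needs, was 1.49-fold higher, and secretin (SCT, 0.40) and the VIP receptor VIPR2 (0.49) were higher. GIP, the incretin of K cells, had 11.65, 12.02 and 12.47 in line Y and 11.74, 12.76 and 15.06 in line X (2.11-fold lower, adjusted p = 5.0e-03). The lowest line X pool lay below the line Y median, and pools of line X spread more widely than the line means differed. Without a probe filter VIPR2 had a mean difference of -0.010, and it did not pass without pools 23 and 24 (0.38). SCT fell short without line Y pool 24 or any 1 of line X pools 17, 19, 21, 23 and 24 (0.36 to 0.37).

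Fat absorption genes were lower in line Y no more often than all tested genes (8.56 %), and 2 genes of mineral absorption were lower. MTTP, which loads fat onto apolipoprotein B in enterocytes, had 9.86, 10.68 and 10.78 in line Y and 10.89, 11.55 and 12.08 in line X (2.01-fold lower, adjusted p = 0.021), and it was the only 1 of 12 fat absorption genes and of 13 enterocyte markers to pass. The phosphate transporter SLC34A2 was 2.13-fold lower by 3 probes, with 6.72, 7.07 and 7.39 in line Y and 6.90, 8.16 and 9.38 in line X (adjusted p = 9.9e-04). The vitamin D receptor VDR was 1.36-fold lower, with 9.65, 9.84 and 10.36 in line Y and 10.09, 10.45 and 10.55 in line X. These were 2 of 7 tested genes of vitamin D and calcium absorption, while calbindin (CALB1, -0.15) did not pass. MTTP did not pass without line Y pool 17 (-0.90, adjusted p = 0.094) or line X pool 20 (-0.93, adjusted p = 0.055). Of 5 sugar, peptide and amino acid transporters 0 passed. Among brush border enzymes the nucleotidase ENTPD8 was 1.35-fold lower (-0.38 and below the threshold without line Y pool 23), and LPL, the lipoprotein lipase of vessel walls that the list also held, was 1.67-fold higher.

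Fatty acid metabolism gave 4 higher and 2 lower of 18, against 10.1 % and 8.56 % of all tested genes, with a median of -0.02. The 4 were enzymes and a regulator of fatty acid synthesis: the desaturase SCD, with 8.32, 8.71 and 9.05 in line Y and 7.44, 7.68 and 8.05 in line X (1.94-fold higher, adjusted p = 1.1e-08), SREBF1 (0.85), malic enzyme ME1 (0.59) and ATP citrate lyase ACLY (1.35-fold). The 2 lower genes belong to fatty acid oxidation. PPARA, the nuclear receptor that induces it, had 8.96, 9.30 and 9.46 in line Y and 9.61, 10.003 and 10.22 in line X (1.64-fold lower by 3 probes, adjusted p = 2.7e-04), and the thiolase ACAA2 differed by -0.57. SCD, SREBF1, ME1 and ACAA2 rest on 1 probe each, and such genes passed the rule more often. Members that did not pass included FASN (0.41), ACACA (-0.07) and ELOVL6 (-0.28) of synthesis. CPT1A (-0.37), HADHA (-0.32) and ACADS (0.01) of oxidation did not pass either. The line difference of SCD was 0.21 at day 4, and it changed by 0.75 between day 4 and day 16 (adjusted p = 5.2e-04). In cholesterol synthesis and uptake the sterol carrier STARD4 was 1.51-fold lower and the other 10 genes did not pass. ACLY fell short without line Y pool 22 or 23 or line X pool 19 (0.39 to 0.40), and STARD4 without line X pool 23 (-0.54).

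Antioxidant and detoxification enzymes gave 7 lower and 1 higher of 36, against 8.56 % and 10.1 % of all tested genes, with a median of -0.13. GSTK1, a glutathione transferase, differed by -0.79 (adjusted p = 1.0e-11), and its pools did not overlap, with 12.63 to 13.32 in line Y and 13.58 to 14.07 in line X. The alcohol dehydrogenase ADH6 was 1.91-fold lower, thioredoxin reductase TXNRD1 1.48-fold by 3 probes and GSTT1 1.44-fold, and the retinal dehydrogenase ALDH1A1 (-0.68), catalase CAT (-0.59) and CYP2C23a (-0.57) were lower. TXNRD2, the mitochondrial thioredoxin reductase, was higher, with 9.55, 9.69 and 9.85 in line Y and 8.68, 8.96 and 9.16 in line X (1.66-fold, adjusted p = 9.4e-09). Iron and heme handling gave 1 higher and 1 lower of 13, shares below those over all tested genes (10.1 % and 8.56 %). Ferritin light chain (FTL) was 1.90-fold lower and the iron transporter SLC11A2 1.53-fold higher. FTL was at 9.21 in line Y pool 17 and between 10.38 and 11.44 in the other line Y pools. TXNRD1 did not pass in every probe without line Y pools 23 and 24 (-0.53), which left 6 lower of 36, nor without line Y pool 22 or 23 or line X pool 18 alone (-0.54 to -0.52).

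Genes of the IGF and growth hormone axis gave 4 higher and 3 lower of 19, against 10.1 % and 8.56 % of all tested genes. Insulin-like growth factor binding protein IGFBP4 had 12.94, 13.14 and 13.50 in line Y and 11.74, 12.03 and 12.84 in line X, a difference of 1.1 (adjusted p = 1.6e-09). SOCS2, which dampens growth hormone signalling, had 8.92, 9.08 and 9.72 in line Y and 7.94, 8.24 and 8.49 in line X, a difference of 0.95. IGFBP2 (0.69) and the prolactin receptor PRLR (1.59-fold by 4 probes) were higher too. By the mean of a gene's probes, the pools of the lines did not overlap for any of these 4 genes. Over all probes, called or not, the share without overlap and with line Y above was 8.25 %. That share is not a like measure, since these 4 genes were already called higher and are means of probes. For PRLR the lowest line Y pool (9.058) lay barely above the highest line X pool (9.056).

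DIO1, the deiodinase that acts on thyroid hormone, was 2.45-fold lower, with 9.13, 9.5 and 9.66 in line Y and 10.40, 10.75 and 11.18 in line X (adjusted p = 4.2e-14). DIO1 differed by -0.39 and -0.73 at the younger ages, and the change between day 4 and day 16 was -0.57 (adjusted p = 1.5e-03). IGF2R (-0.44) and the adaptor GRB2 (1.35-fold lower) were the other lower members.

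Junction, ion transport and identity genes were called higher about as often as all tested genes (10.1 %). Junction and ion transport genes were also called lower about as often as all tested genes (8.56 %). No identity gene was called lower, though the mean was lower in line Y for 10 of the 25. The connexin GJB1 (2.33-fold) and claudin CLDN1 (1.64-fold) were lower and the integrin ITGA3 (1.81-fold) and JAM2 (1.49-fold) higher, within 3 higher and 3 lower of 27, CDH5 (0.39) and ITGA6 (-0.56) being the remaining ones. GJB1 was at 9.81, 10.05 and 9.73 in line X pools 18, 20 and 22. It ran between 8.09 and 8.56 in the other line X pools and between 6.67 and 8.31 in line Y. Line X pools 18 and 20 also held the highest values of GIP and SLC34A2. CLDN1 ran between 8.85 and 9.83 in line Y and between 9.07 and 11.30 in line X, so that pools overlapped for both junction genes. The sodium channel chain SCNN1A was 1.98-fold lower, with 6.54, 6.76 and 7.21 in line Y and 7.04, 7.42 and 9.39 in line X, and the anion exchanger SLC4A2 1.36-fold higher. Of 26 ion transport genes 3 were higher, the calcium pump ATP2A3 (0.44) and the calcium release channel RYR3 (0.44) among them, and 2 lower. Of 25 transcription factors of intestinal identity 3 were higher and 0 lower. These were SOX17 (1.74-fold by 3 probes, adjusted p = 1.2e-04), SOX9 of crypt cells (1.45-fold) and FOXA2 (1.35-fold), and SOX17 alone passed without pools 23 and 24, where SOX9 differed by 0.45 and FOXA2 by 0.41. CDH5 did not pass without these pools either (0.35). Leaving out single pools ended the call of ITGA6 in 10 of 16 cases (-0.58 to -0.45), of FOXA2 in 11 (0.36 to 0.44), of CDH5 without line Y pool 17 or 23 or line X pool 19 or 20 (0.29 to 0.37), and of SLC4A2 without line X pool 19 (0.37).

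Mitosis gave 3 higher and 0 lower of 35, and the share that was higher lay below the 10.1 % over all tested genes. The mean was nevertheless higher in line Y for 27 of the 35 (77.1 %), against 46.7 % of all tested genes, and lower for 8. The 3 called genes were the kinase PLK1 (1.67-fold), the spindle checkpoint gene BUB1B (1.39-fold by 2 probes) and the condensin subunit NCAPD2 (1.41-fold by 3 probes). The list also held NUF2, whose probes disagreed and which is described below. BUB1B had 9.58, 9.68 and 10.02 in line Y and 9.04, 9.22 and 9.55 in line X. Of 27 DNA replication genes CDK2 (1.56-fold) and RFC3 (1.49-fold) were higher and the primase subunit PRIM2 1.48-fold lower. Chaperones of the endoplasmic reticulum and cytosol gave 4 higher and 0 lower of 45, where the share higher again lay below 10.1 %. CRELD2, which is induced when proteins misfold in the endoplasmic reticulum, had 10.35, 10.63 and 10.84 in line Y and 9.21, 9.70 and 9.92 in line X (1.99-fold higher by 4 probes, adjusted p = 2.2e-08), and PPIA, DNAJA1 and DNAJB6 were higher by 0.51, 0.47 and 0.42. Without line Y pools 23 and 24, NCAPD2 (0.44) and DNAJA1 (0.42) did not pass in every probe, which left 2 of 35 mitosis genes and 3 of 45 chaperones. NCAPD2 did not pass in every probe in 8 of the 16 fits that left out 1 pool (0.46 to 0.48), DNAJA1 without line Y pool 18 (0.46) and DNAJB6 without line X pool 20 (0.38).

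Large sets of housekeeping genes held few called members. Of 101 vesicle trafficking genes 6 were lower and 2 higher, of 57 proteasome and ubiquitin genes 3 and 1, of 35 ribosomal proteins 1 and 0, and of 25 respiratory chain genes 2 and 0. The shares that were lower lay below the 8.56 % over all genes. Those of vesicle and respiratory chain genes lay above the 5.48 % of genes with at least 2 tested probes. RAB22A, a small GTPase of endosomes, had 8.61, 8.89 and 9.24 in line Y and 9.45, 9.63 and 9.89 in line X (1.62-fold lower by 4 probes, adjusted p = 1.5e-06), and NAPB, a SNARE recycling protein, had 8.2, 8.37 and 8.57 in line Y and 7.17, 7.35 and 7.62 in line X. The mean of most members was nevertheless lower in line Y, in 88.0 % of respiratory chain genes, 78.9 % of proteasome genes, 77.1 % of ribosomal proteins and 73.3 % of vesicle genes, against 53.3 % of all tested genes. For ribosomal proteins the median of -0.08 was 0.00 when the brightest probe stood for each gene and -0.38 with scaling to the 75th percentile. The called ribosomal gene was RPS6, with 14.11 and 13.58 in line Y pools 23 and 24 and at least 15.43 in every other pool. Its line X values, 15.89 to 15.999, lay at the top of the range of the arrays, where saturation limits the measure. Without these pools RPS6 differed by -0.15 and did not pass, while RPL27 (-0.73) and RPL37 (-1.03) did. Also without them USP4 (-0.42) and UFD1L (-0.35) of the proteasome and ubiquitin list and STX7 (-0.51) of the vesicle list did not pass, and the vesicle list held 7 lower and 4 higher. Both called respiratory chain genes, UQCR11 and NDUFA12, were lowest in pools 23 and 24 and did not pass without them (-0.27 and -0.15). NDUFA12 did not pass without pool 23 (-0.37) or pool 24 (-0.33) alone.

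Markers of tissues that a dissected piece of gut could carry along were followed over the same pools. Of 8 erythrocyte markers 2 haemoglobin genes, HBBA (1.55-fold) and HBAD (1.40-fold), were higher and GYPC was 1.34-fold lower, and the mean deviation of the list was between -0.53 and 0.49 in line Y and between -0.67 and 0.83 in line X. Liver markers ran between -0.42 and 1.06 in line Y and -0.37 and 0.28 in line X, with 1 of 8 called, F9 (2.19-fold lower). The 3 tested pancreas markers ran between -0.53 and 1.11 in line Y and between -0.29 and 1.28 in line X. The 2 tested genes of the W chromosome, HINTW and SPIN1L, differed by 0.00 and 0.01. HBBA did not pass without line Y pool 17 (0.52), HBAD in 6 (0.37 to 0.45) and GYPC in 4 (-0.38 to -0.33) of the 16 fits that left out 1 pool. The part of these tissues in the results above was not tested.

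Separate probes of 1 gene did not always give 1 answer. Of the 1213 genes with several probes of which any was called, 63 had probes called in opposite directions. NUF2, a kinetochore gene, had the widest gap. One probe had 2.87, 3.26 and 4.29 in line Y and 10.01, 10.82 and 11.61 in line X, was well above background in 0 of 8 line Y pools and 8 of 8 line X pools, and the fall came to 86.6-fold at least. The other probe differed by -0.18 (adjusted p = 0.019), which is below the fold change threshold. A PMM2 probe fell by 48.4-fold at least, with 0 of 8 line Y pools well above background, whereas its other probes differed by -0.54 and -0.25.

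ARHGEF39 probes were called in opposite directions, by 3.77 and -0.56. The first of them had 8.71, 9.21 and 9.42 in line Y and 4.81, 5.36 and 5.81 in line X, and the other had 6.85, 7.36 and 7.78 in line Y and 7.63, 7.94 and 8.27 in line X. DARS had 2 probes higher by 2.94 and 2.52 and another at -0.07 (adjusted p = 0.74). FLNC had 1 probe at -3.02 and others at -0.13 and 0.22, and EPHB2, a receptor of ephrins, had 1 probe higher by 3.20 (adjusted p = 7.8e-18) and another at 0.35 (adjusted p = 0.051). In order of age the EPHB2 probe that was higher differed by 4.72, 4.50 and 3.20. None of these genes was counted as higher or lower above, and why their probes differ was not tested.

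**Figure D5:**
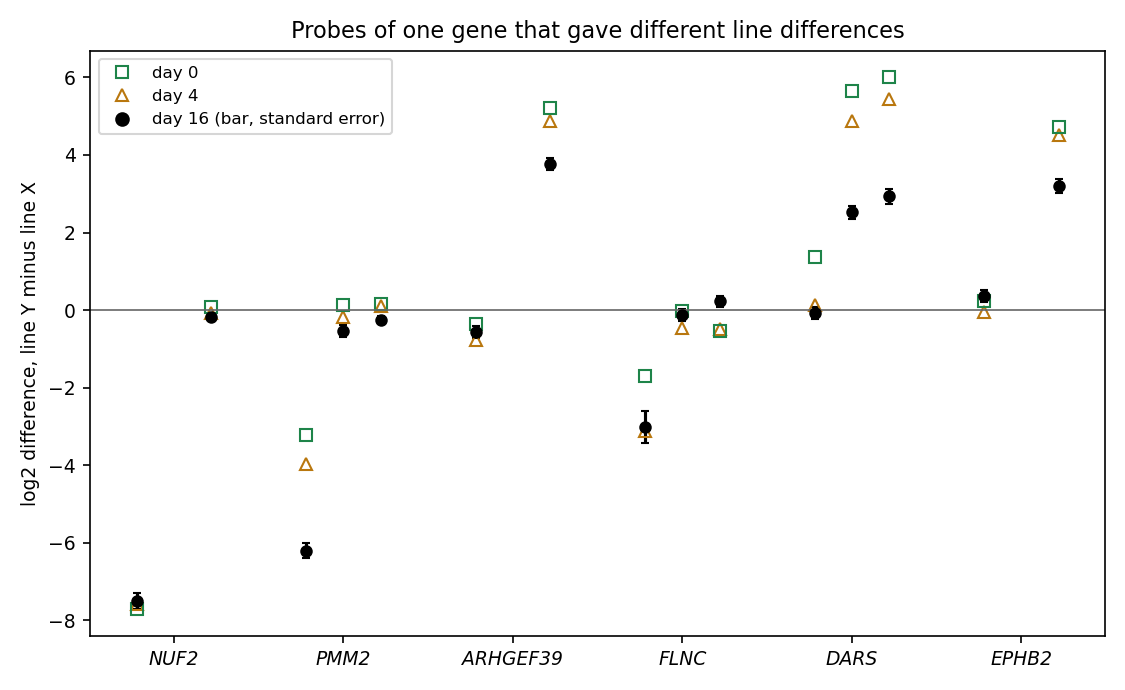
Log2 difference of line Y minus line X for each tested probe of 6 genes with disagreeing probes at days 0, 4 and 16, with the standard error of the fit as bars at day 16. The lowest NUF2 and PMM2 probes are drawn at their measured values, which are only a bound at day 16 since no line Y pool was well above background.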

How the data were processed

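The authors read Agilent one-colour intensity values (Feature Extraction 10.7.3.1) with limma in R 3.0.2, applied normexp background correction (offset 1) and quantile normalisation, and averaged replicate spots; the deposited table holds the resulting log2 values. Recomputing them from the deposited scanner intensities gave the same values. A limit was set for each array at 1.1 times the log2 value of its brightest dark corner spot, and 25527 of 43603 probes exceeded it throughout 1 or more of the 6 groups and were kept. Differences were fitted with limma 3.58.1 (R 4.3.3) over all 45 arrays in 6 groups, with empirical Bayes and Benjamini-Hochberg adjustment over all kept probes. Symbols came from matching accessions in the array design to RefSeq (10458 probes, 4655 genes).

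Genes named were the 12 highest and 12 lowest with agreeing probes and non-overlapping pools, up to 4 members per list, 5 genes with the widest gap between probes, and 5 fixed names. A few genes that the rule takes are not reported here. Further called list members, and the uncalled ones given for comparison, were named after their values were seen. The comparison and the 41 lists were chosen with earlier results of these data known. Line Y pools at day 0 carry 2 ages in their labels and were taken at the age field. Each pool is 1 array, so that the number of pools limits the precision. Fits were tested on simulated data. Alternatives were other filters and scalings, the day 16 arrays alone, the pool number as a block, other variance models, other thresholds and each pool left out.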

Additional observations from a re-analysis of the deposited data

Results flagged for a closer look

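In 18 of 330 groups of 8 pools checked, 1 pool lay far from the other 7, about as often as chance gives (1 in 20). In line Y, pool 17 had 9.86 for MTTP, 11.68 for ITGA3 and 5.87 for COL20A1, pool 24 had 8.90 for TTC14 and 11.97 for IRF7, pool 19 had 12.63 for GSTK1 and 9.04 for SNX27, pool 21 had 10.999 for EXOC5, and pool 18 had 4.29 for the dim NUF2 probe. In line X, pool 22 had 9.10 for FMOD, 12.84 for IGFBP4 and 11.67 for the FLNC probe at -3.02, pool 23 had 13.46 for TALDO1 and 15.89 for RPS6, pool 18 had 11.89 for P4HA2 and 8.10 for RAB5B, pool 21 had 7.49 for ENTPD8, and pool 19 had 8.56 for CELA1. For RPS6 the nearest line X pool was at 15.97, and all line X pools lay at the top of the range of the arrays.

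The difference between the lines changed with age. It departed from that at day 4 in 8922 probes and from that at day 0 in 11371. Among the leading genes, the day 16 difference minus that at day 4 was 0.86 for RAP1GAP3, 1.61 for TSHB, 0.84 for ACVR2B, 1.18 for LY6E, 0.91 for TTC14, 0.52 for RDH5, 1.33 for HESX1, 0.96 for PTPRZ1, -2.13 for BLB1, -1.003 for TMEM175 and -0.76 for STXBP6. Against day 0 it was 0.99 for RAP1GAP3, 1.79 for TSHB, 1.52 for ACVR2B, 0.60 for RDH5, 1.198 for HESX1, -2.54 for BLB1, 0.53 for SLC24A2, -0.64 for TMEM175 and -0.62 for STXBP6. Each passed the limma interaction test in every probe of the gene.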

How the results depend on the processing

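Under a fold change threshold of 2, 617 probes were higher and 471 lower in line Y, genes with agreeing probes numbered 9 and 5, and the line difference departed from day 4 in 1984 probes and from day 0 in 3046. By adjusted p alone 7107 probes were higher and 6143 lower, and 238 and 320 genes. With each pool left out in turn, 4434 to 4888 probes were higher and 3755 to 4136 lower, 128 to 156 and 118 to 150 genes, and the departures ran from 8504 to 9208 (day 4) and 11103 to 11702 (day 0). All other settings moved these 6 counts by less than 1.5 times. With no probe filter, and with the scanner's own background call as filter, CELA1 (-0.043) and VIPR2 (-0.010) changed sign. Of 165 named genes, 28 lost their call without a filter (CATH2, AvBD1, MERTK, TREMB2 and FOXA2 among them), 22 with the day 16 arrays alone, 19 with the larger normexp offset, 16 with scaling to the 75th percentile, 9 with the scanner's background call, 6 with array weights and 132 with the fold threshold of 2. With the limit applied to the day 16 groups alone, 152 of the 165 were still tested and none of these lost its call. Of 40 list medians 11 moved by more than the spread between pools when the brightest probe stood for each gene, such as collagens and matrix (0.26 in place of 0.11) and iron handling (0.01 in place of -0.20), and 9 with scaling to the 75th percentile, such as fat absorption (-0.28 in place of -0.06) and enterocyte markers (-0.34 in place of -0.12). The share of calls that were higher was 54.0 %, and 47.3 % with scaling to the 75th percentile. Of 614 values of 22 leading genes, 599 kept direction and call, 15 lost the call and 0 reversed. These genes were picked for large differences without overlap of the pools, so that leaving out a single pool could not reverse them. Without line Y pools 23 and 24, an alternative chosen after seeing the data, 7593 of 8589 called probes kept their call.

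Same-numbered pools of the lines correlated by -0.11 to 0.22 in their deviations, above 0.1 in 3 of 8 pairs. The mean was 0.08, against -0.01 for pools of different numbers. So few pairs cannot tell whether pools of 1 number share more than the number, and pools were treated as unpaired. With the pool number as a block 4649 probes were higher and 3994 lower. Saturation limits the brightest probes, and probes dim in 1 line have only a bound there.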
